A study of Bos taurus with 6 samples.

Results

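Integrins are the receptors by which a cell holds on to its matrix, and laminins are matrix proteins that some of them bind. The table of all genes held 36 genes with an integrin or laminin symbol, out of 27607: 17 integrin alpha subunits, 8 integrin beta subunits, 5 laminin alpha chains, 3 laminin beta chains and 3 laminin gamma chains. Members were chosen by symbol, with earlier results of these data known. Proteins that only bind integrins (the ITGB1BP genes) and ITGBL1, an integrin beta-like secreted protein, were not counted. The cells were chondrocytes of the deep zone of bovine articular cartilage that had been infected with a lentivirus carrying doxycycline-inducible bovine CREB5, a transcription factor, and kept under G418 selection (500 µg/ml, 11 days). All cultures then spent 3 days in low attachment plates with 10% serum, 100 ng/ml TGFa and 20 ng/ml TGFb2. The Dox- group (3 libraries) had no doxycycline and the Dox+ group (3 libraries) had it, at 1 µg/ml per the labels' treatment protocol and at 1 mg/ml per the series' design text, a conflict that was not resolved here. The cells were from 3 knees collected independently, both groups carry the same lentivirus, and neither the animals' age nor sex is stated in the labels. No library here is from cells given doxycycline without the inducible gene, so an action of doxycycline itself cannot be told apart from that of CREB5.

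An integrin is a pair of 1 alpha and 1 beta subunit, and the pair decides what it binds. ITGB1 joins with most alpha subunits, among them the collagen receptors ITGA1, ITGA2, ITGA10 and ITGA11, the fibronectin receptor ITGA5 and the laminin receptors ITGA3, ITGA6 and ITGA7. ITGAV joins with ITGB1, ITGB3, ITGB5, ITGB6 or ITGB8 and binds ligands with an RGD motif, including latent TGF-beta. Laminins are trimers of 1 alpha, 1 beta and 1 gamma chain that assemble basement membranes, and in cartilage they lie in the pericellular matrix around each chondrocyte.

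The libraries held between 20063379 (Dox+ 3) and 122366790 (Dox+ 2) reads. Values are normalized counts, which are reads divided by a factor for each library, and are not divided by gene length, so levels of different genes are not compared. Where 3 values of a group are given, they are in the order of libraries 1, 2 and 3. A floor of 3 reads was worth between 1.32 and 6.98 normalized counts, for counting error only. CREB5 stood between 308 and 510 in the Dox- libraries and between 12413 and 21964 in the Dox+ libraries, so each library was on the side its label gives. Reads of the added and of the cells' own CREB5 are not told apart in these counts. Of 11 chondrocyte markers, COL2A1, ACAN and SOX9 had at least 1885 normalized counts in every library. MATN1 had at most 8.83 in the Dox+ libraries, and limma called 3 of the 11 lower there, ACAN among them, as given below.

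Of the 36 genes, 27 had a mean of at least 10 normalized counts and were tested, and 9 were not. In limma at an adjusted p under 0.05, 1 member rose in Dox+ cells, ITGB8, and 2 fell, ITGA11 and LAMA4, while 24 did not pass. Across all 13180 genes tested, 2.52% were called higher (332 genes) and 0.357% were called lower (47 genes). The count test of edgeR on the recovered reads called 304 higher and 39 lower. The median log2 fold change was -0.25 over the 27 members and -0.0036 over all genes tested. With the replicate number as a block, which compares same-numbered libraries, limma called ITGB3 and ITGA10 lower as well, which made 1 called higher and 4 called lower, against 4.86% and 1.65% of all genes. In the authors' deposited table, 2 members were higher (ITGB8 and ITGA2) and 5 were lower (ITGA10, ITGA11, ITGB3, LAMA4 and LAMB3) at an adjusted p under 0.05, of 32 with an adjusted p there. That table called 5.24% of its 14664 genes higher and 2.05% lower. Changes are differences of group means of log2(normalized count + 1), which understates the change of genes with few counts. In bulk samples fewer cells of a type and less RNA per cell cannot be told apart.

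**Figure D1:**
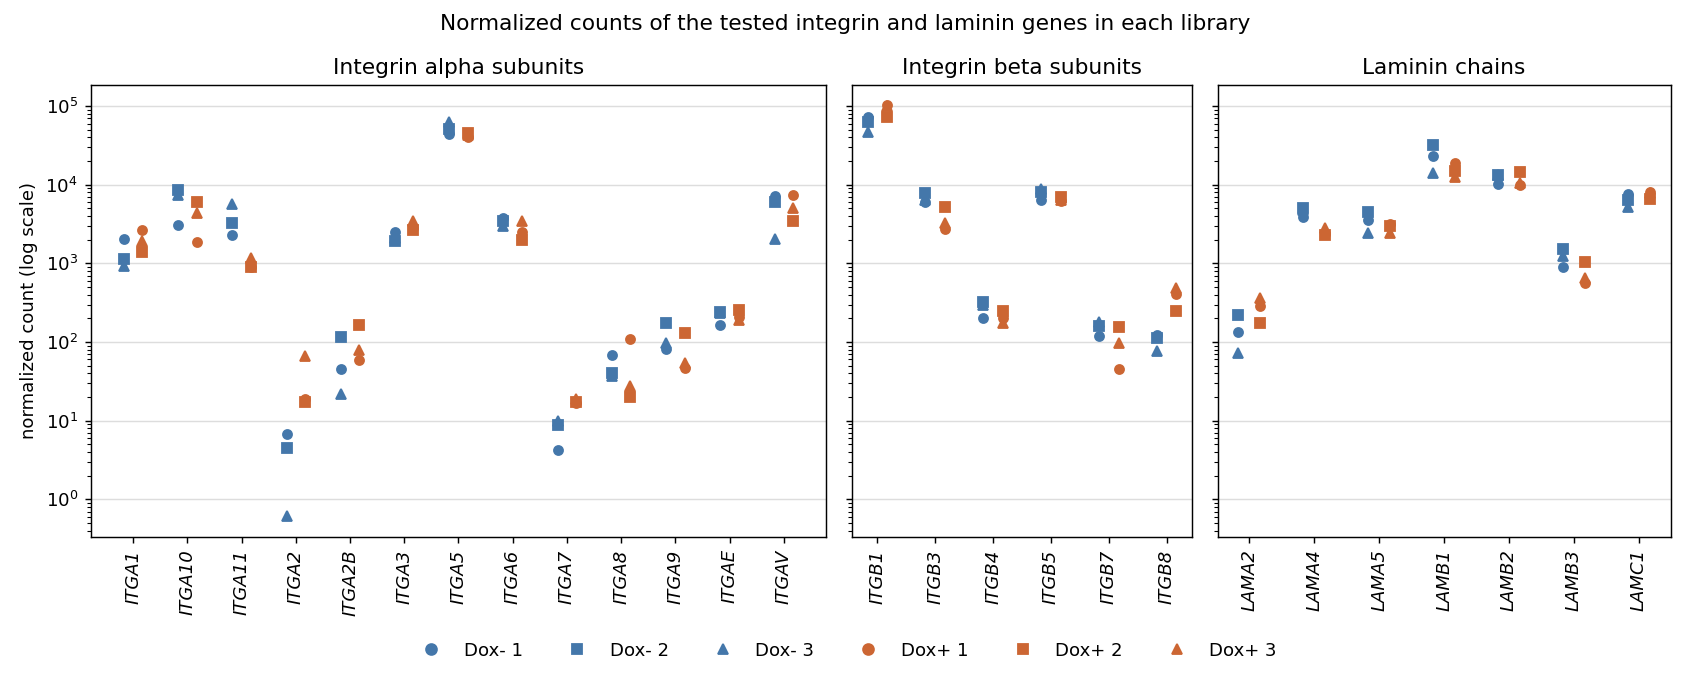
Normalized counts (log axis) of 26 of the 27 tested integrin and laminin genes, with 1 point per library, blue for Dox- and orange for Dox+, and the point's shape giving the library's number. The groups do not overlap for 7 genes, ITGA11, ITGB8, LAMA4, ITGB3, ITGA2, ITGA3 and ITGA7, and overlap for the others shown, while 15.2% of all 13180 genes tested had groups that do not overlap.

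Among the collagen receptors, ITGA11, which binds fibrillar collagens and is best known from mesenchymal cells, fell. Its normalized counts were 2285, 3248 and 5738 in the Dox- libraries against 895, 901 and 1174 in the Dox+ libraries. The Dox+ libraries lay close together, and each was below every Dox- library. The mean went from 3757 ± 1782 to 990 ± 159 (SD, n = 3). The fit on the log scale gave a 3.55-fold fall (log2 fold change -1.83, SE 0.32; adjusted p = 0.017 by limma), and the gene was lower in 3 of 3 same-numbered pairs. Over 19 alternative settings the adjusted p ranged from 1.7e-17 to 0.071. The limma call was lost without Dox- 2 (adjusted p = 0.057), Dox+ 1 (0.063) or Dox+ 3 (0.071) in fits that ignore the pairing, and was kept with the block.

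ITGA10, the collagen receptor subunit that marks chondrocytes and binds type II collagen, had 3062, 8652 and 7479 normalized counts in the Dox- libraries against 1851, 6106 and 4346 in the Dox+ libraries. The groups overlapped, with the lowest value of each group in the libraries numbered 1, but each Dox+ library was below the Dox- library of its number. The means were 6398 ± 2948 and 4101 ± 2138 (n = 3), with a log2 fold change of -0.67 (95% interval -1.79 to 0.45), and the gene did not pass (limma adjusted p = 0.79). It passed with the block (adjusted p = 0.042), and no longer did so when both libraries numbered 1 were left out (0.37). COL2A1, its ligand, followed a like order: 18352, 57510 and 47987 in the Dox- libraries against 8779, 22991 and 11650 in the Dox+ libraries. The part of the chondrocyte markers in this difference was not tested.

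ITGA1, a receptor for basement membrane and fibrillar collagens, is described here after its values were seen, as are ITGA2, ITGAV, ITGA3, LAMA2 and LAMB3, none of which limma called without or with the block. It had 2021, 1137 and 933 normalized counts in the Dox- libraries against 2686, 1404 and 1907 in the Dox+ libraries. It was higher in 3 of 3 pairs with overlapping groups, and did not pass (log2 fold change 0.58, 95% interval -0.18 to 1.34, limma adjusted p = 0.67, and 0.16 with the block). ITGA2, another collagen receptor subunit and best known from platelets and epithelia, had only 11, 3 and 1 reads in the Dox- libraries against 11, 39 and 29 in the Dox+ libraries. In normalized counts this was 6.74, 4.44 and 0.61 against 18.6, 17.2 and 67.4, with no overlap. The log2 fold change was 2.83 with a wide 95% interval, 0.88 to 4.79, and it did not pass in limma (adjusted p = 0.18, and 0.087 with the block).

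The make-up of the collagen receptor set differed between the libraries. ITGA11 gave 31.0%, 24.9% and 40.5% of the summed normalized counts of ITGA1, ITGA2, ITGA10 and ITGA11 in the Dox- libraries against 16.4%, 10.7% and 15.7% in the Dox+ libraries. The share of ITGA10 overlapped between groups, at 53.6% ± 12.4 and 54.8% ± 19.4, and so did that of ITGA1, at 14.2% ± 11.5 and 30.5% ± 16.9 (n = 3). Shares of counts depend on the length of each gene, so they serve to compare libraries and not genes, and they were not tested.

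Of the subunits that bind RGD ligands, ITGA5, the fibronectin receptor, had 44514, 51913 and 62980 normalized counts in the Dox- libraries against 41025, 45175 and 42549 in the Dox+ libraries. It was lower in 3 of 3 pairs, but the groups overlapped and it did not pass (log2 fold change -0.29, 95% interval -0.76 to 0.17, limma adjusted p = 0.77). ITGAV varied between libraries within each group, with 7164, 6068 and 2070 in the Dox- libraries against 7461, 3459 and 5072 in the Dox+ libraries. Its groups overlapped, and its 95% interval reached from -0.87 to 1.23 on the log2 scale (limma adjusted p = 0.95). ITGA8, a nephronectin receptor, had between 20.3 and 110 normalized counts, and ITGA2B, the platelet partner of ITGB3, between 22.0 and 166, and neither passed.

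Among the laminin receptors, ITGA3 was 2522, 1930 and 2117 in the Dox- libraries against 2840, 2651 and 3425 in the Dox+ libraries. All 3 Dox+ libraries were above all 3 Dox- libraries, though the difference was small and did not pass (1.36-fold, 95% interval 0.01 to 0.87 on the log2 scale, limma adjusted p = 0.45, and 0.25 with the block). ITGA6, which serves with ITGB1 or ITGB4, had 3393 ± 347 and 2630 ± 730 normalized counts (n = 3) with overlapping groups, and ITGA7, the laminin receptor of muscle, had between 4.29 and 18.6. Neither passed in limma without or with the block, though 1 of 19 alternatives called ITGA6 lower. Its pairs did not agree, with 2 lower and 1 higher in Dox+ cells. Of the rest, ITGA9, which binds tenascin and VCAM1, and ITGAE, the E-cadherin receptor of T cells, had 47.4 to 175 and 164 to 259 normalized counts with overlapping groups.

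The 4 alpha subunits that were not tested were ITGA4 and the leukocyte subunits ITGAD, ITGAL and ITGAM. ITGA4 had 4 reads in all over the Dox- libraries and 13 over the Dox+ libraries, ITGAD had 11 and 5, ITGAL had 0 and 1, and no library had a read of ITGAM. A count of 0 allows up to the floor given above. ITGB2, the beta subunit shared by these leukocyte integrins, had 29 reads over the Dox- libraries, 25 of them in Dox- 1, and 19 over the Dox+ libraries. PTPRC, the defining leukocyte gene CD45, had between 0 and 2.33 normalized counts in any library. Other genes of the leukocyte marker list had more: CD68 lay between 138 and 582, CD14 between 56.2 and 198 and LCP1 between 0 and 48.8.

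ITGB8, the partner of ITGAV that is known for activating latent TGF-beta, was the member that rose. It had 123, 112 and 77.0 normalized counts in the Dox- libraries against 403, 248 and 488 in the Dox+ libraries. The groups did not overlap, and Dox+ 2 was the lowest of its group. The mean went from 104 ± 24.2 to 380 ± 122 (n = 3). The fit on the log scale gave a 3.55-fold rise (log2 fold change 1.83, SE 0.35; adjusted p = 0.025 by limma). It was higher in 3 of 3 pairs. Over 19 alternatives the adjusted p ranged from 4.2e-07 to 0.17. In fits that ignore the pairing, the call was lost without Dox- 2 (adjusted p = 0.071), Dox- 3 (0.083), Dox+ 1 (0.11) or Dox+ 3 (0.17), and with the block it was kept (0.0070).

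ITGB3, which pairs with ITGAV as the vitronectin receptor, had 6084, 7799 and 6424 normalized counts in the Dox- libraries against 2743, 5197 and 3267 in the Dox+ libraries. Each Dox+ library was below each Dox- library, with Dox+ 2 nearest to them. The log2 fold change was -0.90 (SE 0.25, 1.87-fold lower), with a limma adjusted p of 0.14, so it did not pass, and of 0.013 with the block, where it did. The block call was not made without both libraries numbered 1 (0.17), and without Dox+ 2 alone the fit with no block made the call (0.024).

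The other beta subunits did not pass. ITGB1, the common partner, had 73327, 62972 and 46317 normalized counts in the Dox- libraries against 101894, 72065 and 100631 in the Dox+ libraries. Every pair was higher in Dox+ cells, and Dox+ 2 lay just under Dox- 1 (log2 fold change 0.60, 95% interval 0.02 to 1.18, limma adjusted p = 0.45, and 0.22 with the block). ITGB5 had 6395, 8195 and 8819 in the Dox- libraries against 6136, 6911 and 6451 in the Dox+ libraries, with overlapping groups (log2 fold change -0.25, 95% interval -0.66 to 0.16). ITGB4, the hemidesmosome subunit, lay between 177 and 324, and ITGB7, a leukocyte subunit, between 45.7 and 180. ITGB6, the epithelial partner of ITGAV, had 7 reads over the Dox- libraries and 3 over the Dox+ libraries and was not tested.

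Within the set of ITGB3, ITGB5, ITGB6 and ITGB8, ITGB8 gave 0.978%, 0.698% and 0.503% of the summed normalized counts in the Dox- libraries against 4.34%, 2.01% and 4.78% in the Dox+ libraries. ITGB3 gave 48.3%, 48.4% and 41.9% against 29.6%, 42.1% and 32.0%. For ITGB8 every Dox+ library was above every Dox- library, while for ITGB3 Dox+ 2 lay just above Dox- 3.

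**Figure D2:**
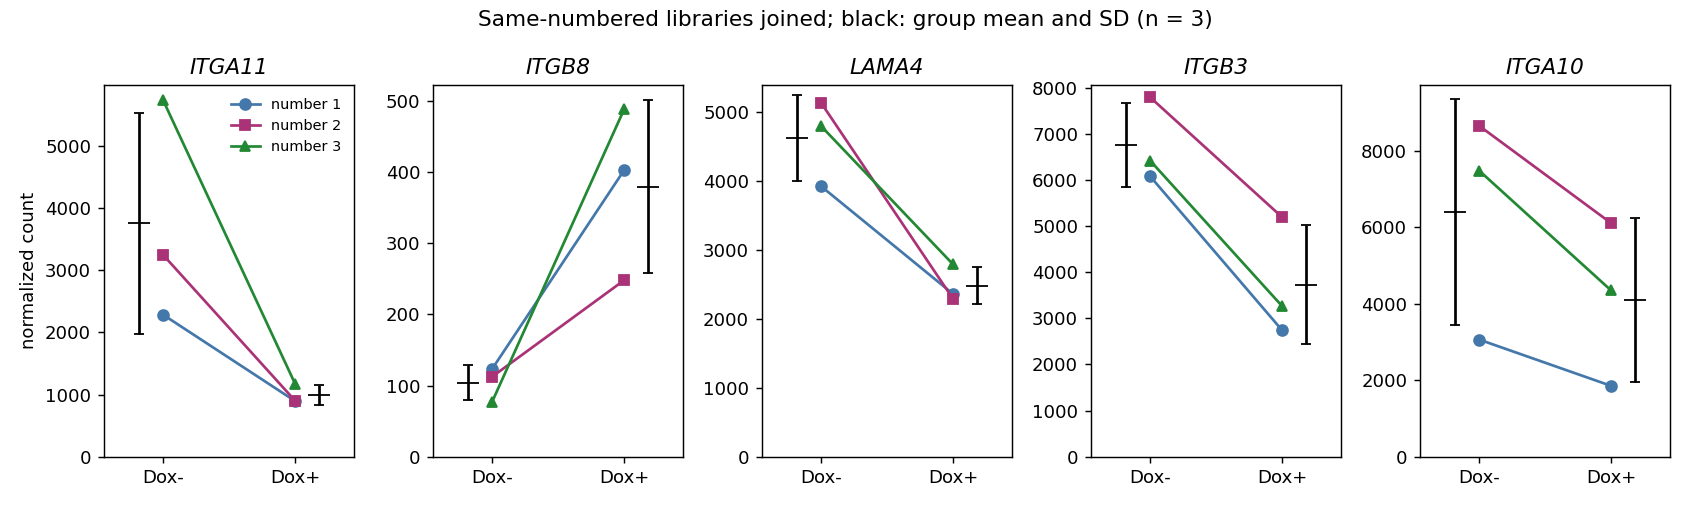
Normalized counts of the 5 members called by limma without or with the replicate block, in Dox- and Dox+ libraries, with a line joining the libraries of the same number and black bars for the group mean and SD (n = 3). Lines of ITGA11, LAMA4, ITGB3 and ITGA10 all go down and those of ITGB8 all go up, and only for ITGA10 do the 2 groups overlap.

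Of the laminin alpha chains, LAMA4, a chain of vascular and mesenchymal basement membranes, fell. It had 3918, 5126 and 4789 normalized counts in the Dox- libraries against 2357, 2286 and 2786 in the Dox+ libraries. The groups were well apart, and 3 of 3 pairs were lower. The mean went from 4611 ± 624 to 2476 ± 270 (n = 3), a 1.86-fold fall in the fit on the log scale (log2 fold change -0.89, SE 0.18, adjusted p = 0.036 by limma). Over 19 alternatives the adjusted p spanned 3.4e-07 to 0.16. Without the block the call needed 5 of the 6 libraries: leaving out Dox- 2 gave an adjusted p of 0.16, Dox+ 1 gave 0.15, and each of Dox- 3, Dox+ 2 and Dox+ 3 gave 0.10. With the block it was 0.012.

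LAMA5, the widespread chain of adult basement membranes, had 3601, 4569 and 2423 normalized counts in the Dox- libraries against 3137, 2987 and 2407 in the Dox+ libraries. It was lower in 3 of 3 pairs, but by little in the pair numbered 3, and did not pass (log2 fold change -0.27, 95% interval -0.84 to 0.29). LAMA2, the muscle and nerve chain, went from 143 ± 75.5 to 277 ± 97.6 (n = 3) and was higher in 2 of 3 pairs (log2 fold change 1.02, 95% interval -0.01 to 2.06, limma adjusted p = 0.49, and 0.27 with the block). The pair numbered 2 went the other way, with 223 in Dox- 2 and 173 in Dox+ 2. Of 19 alternatives, 1 called LAMA2 higher. As a share of all laminin alpha counts, LAMA4 was 51.1%, 51.7% and 65.7% in the Dox- libraries against 40.6%, 41.9% and 50.02% in the Dox+ libraries. The groups did not overlap by this measure, but Dox+ 3 was close to Dox- 1. LAMA1, the embryonic chain, and LAMA3, the chain of epithelial anchoring laminin, were not tested, with at most 5.08 and 22.0 normalized counts in any library.

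No laminin beta or gamma chain passed in limma over all 6 libraries, without or with the block. Of 19 alternatives, 1 called LAMB1 lower and 2 called LAMB3 lower. LAMB1 had 23373, 31878 and 14230 normalized counts in the Dox- libraries against 18720, 14907 and 12455 in the Dox+ libraries, lower in 3 of 3 pairs with overlapping groups (log2 fold change -0.54, 95% interval -1.22 to 0.15). LAMB2 had 10195, 13413 and 13135 against 10015, 14418 and 10488, and its 95% interval, -0.55 to 0.39, spanned 0. LAMB3, the beta chain of epithelial anchoring laminin, had 897, 1540 and 1241 in the Dox- libraries against 567, 1053 and 649 in the Dox+ libraries. All 3 of its pairs were lower, and it did not pass (log2 fold change -0.71, limma adjusted p = 0.42, and 0.060 with the block; DESeq2 with the block gave 0.021).

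LAMC1, the gamma chain of most laminins, had 7531, 6376 and 5245 normalized counts in the Dox- libraries against 8202, 6560 and 7769 in the Dox+ libraries. It was higher in 3 of 3 pairs, with overlapping groups (log2 fold change 0.24, 95% interval -0.20 to 0.68). LAMC3 was not tested and had 24 reads over the Dox- libraries, 21 of them in Dox- 1, and 1 over the Dox+ libraries.

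**Figure D3:**
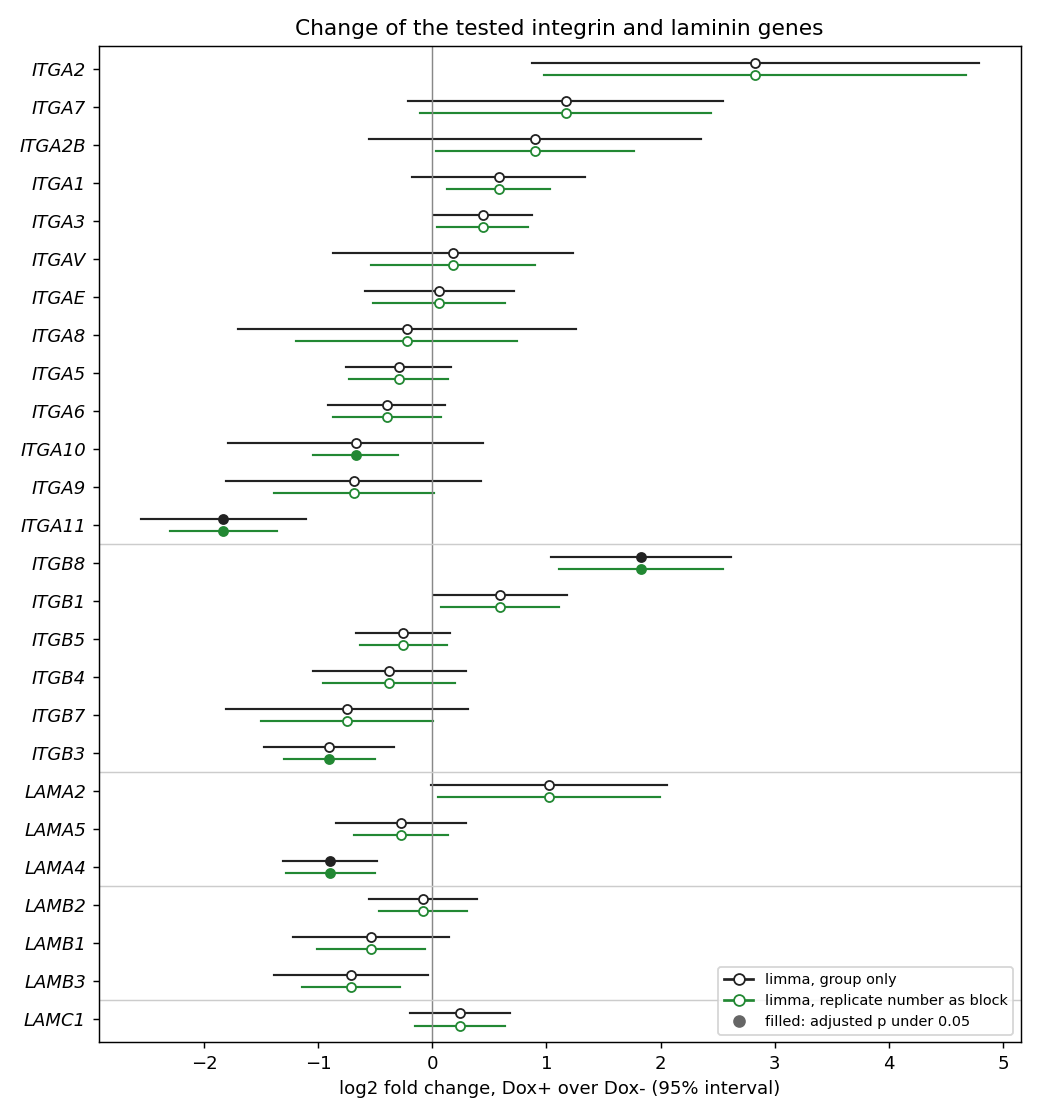
Log2 fold change of 26 of the 27 tested genes, Dox+ over Dox-, with 95% intervals from limma without (black) and with (green) the replicate number as a block, grouped from top to bottom as integrin alpha, integrin beta, laminin alpha, laminin beta and laminin gamma. Filled points passed an adjusted p under 0.05: ITGA11, ITGB8 and LAMA4 in both fits, ITGA10 and ITGB3 with the block alone.

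**Figure D4:**
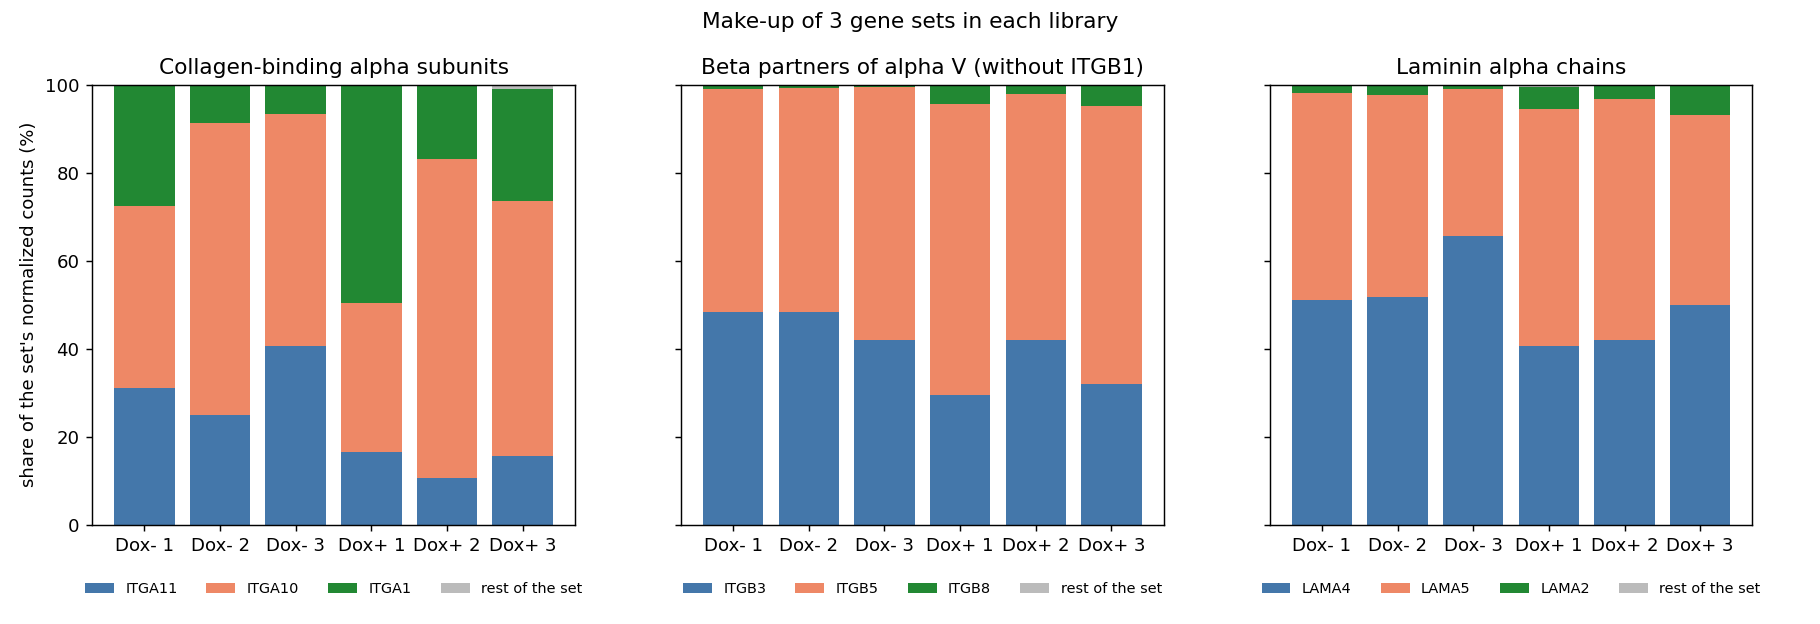
Share of each gene in the summed normalized counts of the collagen-binding alpha subunits (left), the ITGAV partners other than ITGB1 (middle) and the laminin alpha chains (right), with 1 bar per library. The ITGA11 part of the bar is smaller in every Dox+ library (10.7% to 16.4%) than in every Dox- library (24.9% to 40.5%).

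The proteins that connect integrins to the cell's interior, integrin ligands and laminin partners were described with lists. These were written from knowledge of the pathway, with earlier results of these data known. Counts of calls in these and the marker lists stand against all 13180 genes tested. Of those genes, limma called 2.52% higher and 0.357% lower, and 4.86% and 1.65% with the block. Of 35 tested adaptors and activators, such as the talins, kindlins, focal adhesion kinase and paxillin, limma called 0, with a median log2 fold change of -0.09 (2 higher and 6 lower at an unadjusted p under 0.05, and edgeR called 0 and DESeq2 2). The block added 4 calls: FYN and KANK1 higher, NEDD9 and LIMS2 lower. TLN1, which encodes talin, the activator that binds the beta subunit tail, had 28090 ± 2702 and 23801 ± 3503 normalized counts (n = 3, limma adjusted p = 0.81). Of 12 membrane partners, among them CD151, the tetraspanin bound to laminin-binding integrins, and CD47, limma called 0 without and 0 with the block, edgeR and DESeq2 called 0, and 0 had an unadjusted p under 0.05.

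Of 27 integrin ligands tested, limma called 4 higher and 0 lower, against 2.52% and 0.357% of all genes tested. The 4 were CCN3, a matricellular protein (118-fold), LTBP1, which holds latent TGF-beta in the matrix (5.61-fold), POSTN (periostin, 4.68-fold) and FBN1 (a fibrillin, 3.06-fold). Their limma adjusted p were 5.9e-07, 0.0024, 0.024 and 0.030. In the lower direction 7 had an unadjusted p under 0.05, edgeR called 0 and DESeq2 called 6. The list's median was -0.17, and the block gave 6 calls in each direction. Those lower were TNC, COL2A1, COL6A1, COL6A2, THBS1 and CCN2, and VCAM1 and SVEP1 joined those higher. FN1, the fibronectin bound by ITGA5, had 4906350 ± 907332 and 4282980 ± 147001 normalized counts (n = 3, adjusted p = 0.96). The call of POSTN was lost by edgeR (0.055) and without Dox- 3 (0.11), Dox+ 1 (0.064), Dox+ 2 (0.069) or Dox+ 3 (0.095), and that of FBN1 by testing unfiltered genes (0.050) or by leaving out Dox- 2 (0.12), Dox- 3 (0.14), Dox+ 1 (0.11) or Dox+ 3 (0.15).

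Of 16 tested basement membrane partners of laminins, 1 fell and 0 rose in limma (median -0.25), with 1 higher at an unadjusted p under 0.05 and 0 called higher by edgeR or DESeq2. SMOC1, a calcium-binding basement membrane protein, went from 20216 ± 3961 to 10419 ± 790 (n = 3, 1.92-fold lower in the fit on the log scale, limma adjusted p = 0.043, with values up to 0.23 when single libraries were left out and 0.051 in edgeR). With the block HSPG2, which encodes perlecan, COL15A1 and COL18A1 were lower too, and TINAGL1 was higher. HSPG2 had 50882, 84166 and 78117 normalized counts in the Dox- libraries against 34918, 36361 and 39351 in the Dox+ libraries, so the groups did not overlap (adjusted p = 0.11, and 0.025 with the block). The network-forming COL4A1 and NID1 did not pass. In fits that ignore the pairing, SMOC1 kept its call without 1 library only where that was Dox- 2.

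Of 19 other laminin receptors and glycosylation enzymes of dystroglycan, SGCD, a sarcoglycan of the dystroglycan complex, rose 3.21-fold (limma adjusted p = 0.011) and SDC3, the heparan sulfate proteoglycan syndecan-3, fell 2.30-fold (0.025), with a list median of -0.02. SGCD lost its call without Dox+ 3 (0.084), and SDC3 without Dox- 2 (0.086), Dox- 3 (0.057), Dox+ 1 (0.10) or Dox+ 3 (0.14). DAG1, which encodes dystroglycan itself, had 2792 ± 585 and 2137 ± 122 (n = 3) and did not pass. MCAM, an adhesion molecule known to bind laminins with the LAMA4 chain and listed here as a pericyte marker, had 7.97, 8.87 and 7.95 in the Dox- libraries against 293, 606 and 326 in the Dox+ libraries. It rose 41.9-fold (limma adjusted p = 0.00021).

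The markers of other cells moved as follows, and their part in the changes of integrins and laminins was not tested. Of 11 chondrocyte markers 3 fell, ACAN, COL9A1 and CHAD, with a median of -2.26, and the summed level of all 11 was 157876 to 311590 normalized counts in Dox- and 103018 to 121534 in Dox+ libraries. With the block 7 were called lower in limma and in edgeR and 8 in DESeq2, and DESeq2 without it called 7. Without the block limma called 1 lower when Dox- 2, Dox+ 1 or Dox+ 3 was left out, 2 without Dox- 3, and 5 without Dox- 1 or Dox+ 2. Among 8 smooth muscle and pericyte markers, ACTA2 fell from 1475 ± 404 to 348 ± 65.0 (n = 3, limma adjusted p = 0.0031), MCAM rose, and the summed level was 6394 to 13896 and 9276 to 21957. MYH11, the defining gene of smooth muscle, had at most 8.46 normalized counts. Summed levels were 158 to 317 and 165 to 248 for 9 endothelial markers, with CLDN5 at 0 and CDH5 at most 3.68. In that list TEK had 63.6 to 171 over all libraries, VWF 23.7 to 77.8 and PECAM1 11.6 to 101. For 10 leukocyte markers the sums were 223 to 476 and 442 to 751. For 8 epithelial markers the sums were 109 to 335 and 23.8 to 234, with KRT5 at 0. Of these, CDH1 had 15.9 to 131 over all libraries, KRT18 1.32 to 166 and KRT8 0 to 66.8. For the 4 platelet markers found the sums were 12.2 to 45.4 and 4.65 to 11.8, with GP9, GP1BA and TREML1 at 0. Of 7 skeletal muscle markers 5 had no read, and of 7 Schwann cell markers 4 had none, while S100B, which chondrocytes also express, made up nearly all counts of the latter list. None of the endothelial, leukocyte, platelet, epithelial, skeletal muscle, Schwann cell and fibroblast markers tested passed in limma without the block. With the block limma called LCP1, a leukocyte gene, higher (adjusted p = 0.027), the epithelial genes CDH1 and KRT8 lower (0.038 and 0.045), and of the fibroblast genes DPT higher (0.0014) and THY1 lower (0.0049). It also called DES, a muscle gene among the pericyte markers, higher (0.0014). DESeq2 without the block called 1 leukocyte marker higher, and 1 fibroblast marker higher and 2 lower. The 7 markers of synovial and perichondrial fibroblasts summed to 111613 to 147752 and 97655 to 120383.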

How the data were processed

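Libraries were made with the KAPA mRNA HyperPrep kit after Trizol extraction, as the labels' protocols say. Per the submitters' processing notes, the tools were STAR 2.5.2b, Salmon, DESeq2, MultiQC 1.2 and FastQC 0.11.3 and the genome was bosTau9 (ARS-UCD1.2); no roles, strand setting or annotation are given there. The authors' deposited signal is a normalized count per gene, a read count divided by 1 factor per library; 100% of values above 0 were whole reads within 0.01 read. The authors' deposited comparison table gives log2 fold changes and p-values. Whether the fold changes were shrunken is not stated. ITGA2 has a log2 fold change of 0.55 there, smaller than its SE of 1.15, and yet passes. Its p-value was thus not computed from these printed values, and the fold changes there are not set beside those given here. The authors' symbols chose the members: an integrin alpha or beta symbol ending in a number, or in a letter after it, or in 1 letter, or LAMA, LAMB or LAMC with a number. The members and lists were chosen with earlier results of these data known.

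Groups were compared in R 4.3.3 with limma 3.58.1, as a two-sided moderated test (eBayes, trend) of log2(normalized count + 1) with group as the only term. All 13180 genes whose mean reached 10 were fitted and p-values were adjusted by Benjamini-Hochberg. Scripts were tested on simulated data. Alternatives were the replicate block, pseudocounts of 0.5 and 5, no filter and a mean of at least 50, TMM scaling, edgeR 4.0.16 (quasi-likelihood) and DESeq2 1.42.0 on the recovered reads, and leaving out libraries. Deviations of same-numbered libraries from their group means correlated at 0.65, 0.44 and 0.21 over genes for numbers 1, 2 and 3. Differently numbered libraries correlated at -0.59 to 0.18, with the highest value for Dox- 3 with Dox+ 2, near that of number 3. Deviations are taken from the mean of the same 3 libraries, so these correlations are not independent. The numbers were taken to pair the libraries, with little support from this check for number 3. The main fit leaves this pairing out, so differences between pairs count as spread in it. For ITGA10 the SE was 0.49 in the main fit and 0.17 with the block. The labels name 3 independently collected knees. No libraries of a group agreed within sampling noise (chi-square per degree of freedom 57.9 to 435).

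Per-library values are printed for members called without or with the block and for the 2 members of each role with the highest mean count, except 1 member that is counted but whose values are not reported here; further members were chosen after their values were seen. Of each list the genes called are named. Genes that overlap or share sequence cannot be told apart by these counts.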

Additional observations from a re-analysis of the deposited data

How the results depend on the processing

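Over 19 alternatives, 491 values of 26 members were recomputed: 447 kept direction and side of the threshold, 18 passed only under the alternative, 12 no longer passed, and 14 reversed, in 4 members called under no alternative. These were, as log2 fold changes with single libraries left out, ITGA8 (-0.94 to 0.25; 0.10 in edgeR, 0.11 in DESeq2, 0.14 under the block without pair 2), ITGAE (-0.12 to 0.16; -0.085 under the block without pair 1), ITGAV (-0.38 to 0.52; -0.38 under the block without pair 3) and LAMB2 (-0.25 to 0.017; 0.039 under the block without pair 3). The cause was not tested.

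Counts of calls are given as the main value, then the limma block, edgeR with the block, DESeq2, DESeq2 with the block, the range with single libraries left out, and the limma block without pair 1, 2 and 3. Members called lower were 2, then 4, 4, 2 and 5, 0 to 2, and 2, 4 and 7. Members called higher were 1 in each of the first 5 fits, 0 to 1, and 2, 3 and 1. All genes called higher were 332, then 640, 591, 542 and 743, 138 to 364, and 576, 961 and 911. All genes called lower were 47, then 218, 190, 159 and 306, 9 to 72, and 186, 274 and 538. For the lists, in either direction, adaptors were 0, then 4, 2, 2 and 4, 0 throughout, and 2, 3 and 6. Ligands were 4, then 12, 12, 10 and 14, 2 to 5, and 12, 9 and 14. Basement membrane partners were 1, then 5, 5, 4 and 5, 0 to 2, and 4, 5 and 8, with 0 in limma with no filter and 0 in edgeR. Other laminin receptors were 2, then 3, 2, 2 and 3, 0 to 2, and 2, 4 and 6. Membrane partners were 0 in each fit but the block without pair 3, with 2. The list alternatives were chosen after seeing the data.

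Where leaving out a library left 2 in a group, limma shared the spread across groups. The median over all genes lay between -0.0142 and 0.0048 in every setting. Members with few reads, such as ITGA2 and ITGA7, have wide intervals, and differences inside them were not detectable at this depth.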
